A study of Mus musculus with 27 samples.

Results

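Maoa and Maob, the neighbouring mouse genes for monoamine oxidase A and B, were followed in allelic ratios of chromatin-associated RNA. They were taken by gene name and make up 2 of the 276 X-linked genes measured. Monoamine oxidases are flavoenzymes of the outer mitochondrial membrane that break down amine transmitters and dietary amines. Monoamine oxidase A is best known for acting on serotonin and noradrenaline, and monoamine oxidase B on phenylethylamine, while dopamine is a substrate of both. The genes are paralogues that lie tail to tail on the X chromosome. On one X of each female cell such genes are silenced by Xist, the long noncoding RNA that coats the chromosome from which it is made.

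All libraries came from female mouse cells of a 129S X Cast background. In every line a doxycycline-inducible TetOn promoter had replaced the Xist promoter on the 129S allele, and a Bgl stem-loop had been inserted at the 3' end of Xist. The lines were WT, CIZ1KO (lacking CIZ1, a nuclear matrix protein that binds Xist RNA), SpenKO (named SpenRRM in the series text; SPEN is an Xist-binding repressor) and SPOCmut, in which the SPOC domain of SPEN, which contacts corepressors, was mutated. Embryonic stem (ES) cells, grown on mitomycin-inactivated fibroblast feeders, were sampled without doxycycline and after 24 h in doxycycline at 1.0 to 1.5 µg/mL, with 2 libraries per group for WT, CIZ1KO and SpenKO. SPOCmut had 3 libraries per group, from the clones C10, C2 and G1, and was the only line for which the labels name several clones. WT was also sampled at 3 h (2 libraries) and SpenKO at 3 h (1 library). WT and CIZ1KO were sampled once each as neural precursor cells (NPC) at day 30, in differentiation medium. Nothing in the labels says that the replicate libraries of WT, CIZ1KO and SpenKO came from separate cultures, so the p-values measure a spread that may be technical, and a difference between lines cannot be told apart from a difference between clones.

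Each value is an allelic ratio between 0 and 1 in a gene and library. Xist, the inducible copy of which is on 129S, had ratios from 0.933 to 0.999 over the 17 libraries with the Spen lines. The ratio is therefore taken to be the share of a gene's allelic reads that is 129S, with 0.5 for equal RNA from both X chromosomes. After doxycycline a lower ratio means a smaller share from the chromosome on which Xist was induced, which less 129S RNA or more Cast RNA would give alike. No read counts came with the ratios, so the depth behind each value is unknown, and no level of either enzyme's RNA can be given. Some ratios of Maob are short decimals, such as 0.625 in WT replicate 2 and 0.65 in CIZ1KO replicate 2 without doxycycline. Another is 0.2 in CIZ1KO NPC. Such values can come from small numbers of allelic reads, which was not tested.

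In mm10 Maoa spans chromosome X from 16619698 to 16687812 on the plus strand (68.1 kb, 15 exons), and Maob spans 16709281 to 16817366 on the minus strand (108.1 kb, 15 exons). Their 3' ends are 21.5 kb apart, and the GENCODE annotation places 0 genes between them and 0 genes overlapping either. Introns make up 93.9% of Maoa and 97.8% of Maob, taking the longest coding transcript of each. The next measured genes are Cask, 2.77 Mb before Maoa, and Efhc2, 0.315 Mb beyond Maob. Xist lies 86.8 Mb from Maoa.

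The coding sequences of the paralogues are alike, which bears on whether a read can be given to the right gene. In GENCODE M21 (GRCm38) they hold 1578 and 1560 bases, and 1103 of 1548 aligned bases (71.3%) were identical. The longest stretch that the transcripts share without a mismatch is 35 bases, in the coding sequence of both. It is shown here in capitals with 20 flanking bases on each side, since it is the place where reads of the paralogues would be hardest to tell apart. It lies shortly before the codon of the cysteine to which the flavin cofactor is bound in these enzymes.
Maoa: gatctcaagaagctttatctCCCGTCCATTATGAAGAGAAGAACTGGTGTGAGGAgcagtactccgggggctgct
Maob: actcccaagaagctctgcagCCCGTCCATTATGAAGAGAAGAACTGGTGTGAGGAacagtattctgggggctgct
The transcripts share 5 different words of 31 bases, all within that stretch, and 0 words of 81 bases, the read length given in the labels. The mature transcripts thus hold no stretch of a full read's length in common, and most of each gene is intron.

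Without doxycycline the paralogues did not start from the same ratio. Maoa ranged from 0.503 to 0.533 over the 9 libraries (median 0.514), close to an equal share, whereas Maob ranged from 0.527 to 0.770 (median 0.651). In WT, Maoa was 0.525 and 0.514, and Maob 0.527 and 0.625. In SpenKO, Maoa was 0.503 and 0.506, and Maob 0.651 and 0.690. The SpenKO values of Maob lay above both WT values, while those of Maoa lay just below them. In CIZ1KO, Maoa was 0.505 and 0.518, and Maob 0.627 and 0.650. In SPOCmut, Maoa was 0.513 in clone C10, 0.519 in C2 and 0.533 in G1, and Maob 0.747, 0.770 and 0.761. Maob was thus highest in the SPOCmut clones, where it stood at the 96.3 to 96.7 percentile of the 270 genes.

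Within libraries the ratio of Maob exceeded that of Maoa in 9 of 9 without doxycycline. The mean difference was 0.157 ± 0.0778 (SD, n = 9 libraries; two-sided exact permutation test swapping the genes within libraries, p = 0.00391, the smallest it can give). These libraries come from 4 lines and are not independent as lines. The difference ranged from 0.00286 in WT replicate 1 to 0.252 in SPOCmut clone C2, so WT replicate 1 showed almost none.

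**Figure D1:**
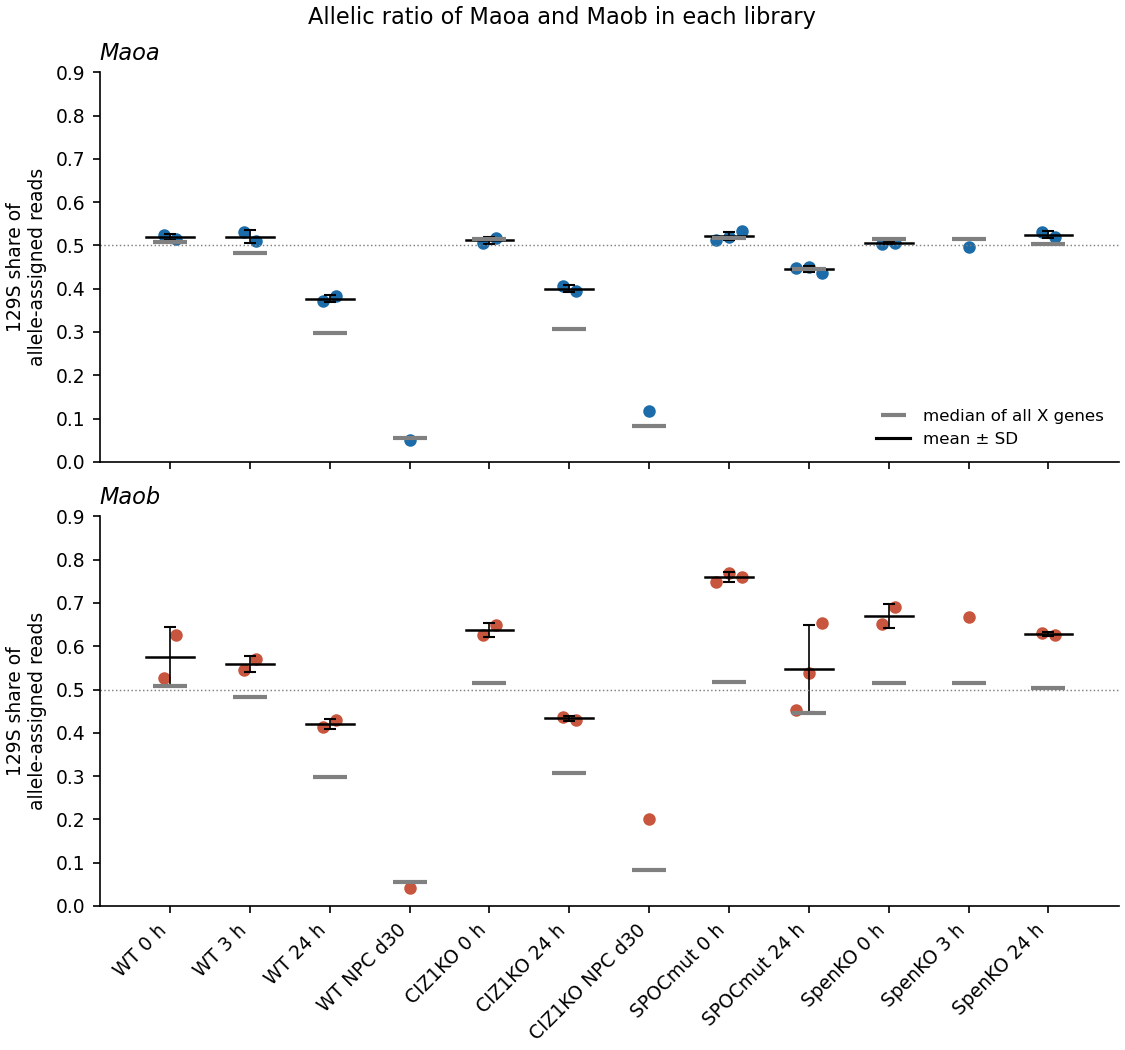
Allelic ratio of Maoa and Maob (y axis, 129S share of reads) in each of the 23 libraries, arranged by group along the x axis, with the group mean ± SD in black and the median of all X genes in grey. Maoa lies between 0.503 and 0.533 in every library without doxycycline, while Maob is spread from 0.527 to 0.770, and both are far lower in the NPC libraries.

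Maob had the larger replicate spread when groups were pooled. The standard deviation within groups, pooled over the ES-cell groups, was 0.00884 for Maoa and 0.0542 for Maob, against a median of 0.0278 over the 270 genes. That placed Maoa at the 5.19 percentile and Maob at the 80.4 percentile of replicate spread. The pooled value of Maob came mainly from the SPOCmut clones at 24 h (SD 0.100) and WT without doxycycline (SD 0.0690). In SpenKO at 24 h the SD of Maob was below that of Maoa (0.00421 and 0.00708), and in CIZ1KO at 24 h likewise (0.00631 and 0.00801). Each of these SDs comes from 2 libraries, too few to rank the spread of the genes within a line. In the table with CIZ1KO the pooled values were 0.00806 and 0.0360, against a median of 0.0288. Since the fit pools the groups, differences of Maob carry larger standard errors than those of Maoa throughout.

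The WT time course shows when the ratios of the 2 genes moved. At 3 h, Maoa was 0.531 and 0.510 and Maob 0.545 and 0.571. The Maoa values lay on either side of the pair without doxycycline, and the Maob values between theirs. The change from no doxycycline was 0.00103 ± 0.0112 (SE) for Maoa and −0.0178 ± 0.0506 for Maob, and neither passed (limma adjusted p = 0.972 and 0.841), while 17.0% of X genes were called lower at 3 h. At 24 h, Maoa was 0.371 and 0.382 and Maob 0.413 and 0.429. All 4 values lay below every WT value without doxycycline or at 3 h.

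Both ratios fell in WT at 24 h. The change was −0.143 ± 0.0112 (SE) for Maoa (limma adjusted p = 5.08e-07) and −0.156 ± 0.0506 for Maob (limma adjusted p = 0.0136). In this comparison 88.9% of X genes were called lower and the median change was −0.197, so a fall was the rule on this chromosome. The falls of Maoa and Maob were smaller than that median, with 72.5% and 73.0% of the starting ratio retained, against a median of 60.6% over all genes. When each library was shifted so that its median gene stood at 0.5, Maoa was higher by 0.0682 (limma adjusted p = 0.00204) and Maob by 0.0552 (adjusted p = 0.435). The fall of Maob depended on single libraries. Without WT replicate 2 of the cells without doxycycline it was −0.107 (limma adjusted p = 0.116), and without WT replicate 1 at 24 h it was −0.148 (adjusted p = 0.0561). From 3 h to 24 h Maoa fell by 0.144 (limma adjusted p = 5.91e-07) and Maob by 0.138 (adjusted p = 0.0245), with 85.6% of genes called lower. With library medians set to 0.5 both directions turned, to 0.0408 for Maoa (limma adjusted p = 0.0332) and 0.0467 for Maob (adjusted p = 0.506). The call of Maob was lost without any 1 of the 4 libraries (limma adjusted p from 0.0521 to 0.0987).

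In SpenKO cells neither ratio changed by a called amount. Maoa was 0.497 and Maob 0.667 in the library at 3 h. At 24 h Maoa was 0.530 and 0.520, and Maob 0.631 and 0.625. Maoa lay above its SpenKO values without doxycycline in both libraries, and Maob below. The change was 0.0203 for Maoa (95% interval −0.00446 to 0.0451; limma adjusted p = 0.831) and −0.0424 for Maob (−0.154 to 0.0697; adjusted p = 0.940), in a comparison in which 0.741% of genes were called lower. The lower bound for Maob is close to its change in WT, given above.

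At 24 h both ratios were higher in SpenKO than in WT, by 0.148 ± 0.0112 (SE) for Maoa (limma adjusted p = 3.82e-07) and 0.207 ± 0.0506 for Maob (adjusted p = 0.00268). Of all genes, 88.1% were called higher in this comparison. With library medians set to 0.5, Maoa was instead lower in SpenKO by a difference of −0.0578, and Maob differed by 0.00112. The response to doxycycline itself, tested as an interaction, was smaller in SpenKO for Maoa by 0.163 ± 0.0158 (limma adjusted p = 7.06e-06), as for 76.7% of genes. For Maob that difference was 0.113 (95% interval −0.0453 to 0.272) and did not pass (limma adjusted p = 0.166). Without WT replicate 2 of the cells without doxycycline it was 0.0644, and over all single libraries left out it ranged up to 0.162 (adjusted p from 0.0814 to 0.448). With library medians set to 0.5 the response differences were −0.0375 for Maoa and −0.0873 for Maob (limma adjusted p = 0.187 and 0.434).

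In the SPOCmut clones the Maoa values at 24 h lay close together and the Maob values did not. Maoa at 24 h was 0.449 in C10, 0.450 in C2 and 0.437 in G1, all below every SPOCmut value without doxycycline. Maob at 24 h was 0.453 in C10, 0.537 in C2 and 0.653 in G1. These Maob values also lay below those without doxycycline, but they reached from near the WT values at 24 h in C10 to above every WT value in G1. Clone by clone, Maoa changed by −0.0646, −0.0682 and −0.0958 and Maob by −0.294, −0.233 and −0.108 in C10, C2 and G1. The clone with the largest change of Maoa was thus the one with the smallest change of Maob. Each clone gave a single library at each time, of unknown depth, so this order was not tested.

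Both genes fell in SPOCmut, Maoa by −0.0762 ± 0.00914 (SE; limma adjusted p = 5.04e-05) and Maob by −0.212 ± 0.0414 (adjusted p = 0.00144). Here 49.6% of genes were called lower and the median change was −0.0658. Maoa stood near that median, at the 42.6 percentile of changes, and its change was −0.00479 once library medians were set to 0.5 (limma adjusted p = 0.775). Maob stood at the 5.56 percentile, number 15 of 270 from the lowest. With library medians set to 0.5 the change of Maob was −0.140 (limma adjusted p = 0.0224). The retained share was 85.4% for Maoa and 72.1% for Maob, against a median of 87.7%. By retained share Maob stood less low, at the 19.6 percentile. Leaving out 1 library at a time moved the retained share of Maob between 65.2% and 78.3%.

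Against WT at 24 h, the SPOCmut ratios were higher by 0.0686 ± 0.0102 (SE) for Maoa (limma adjusted p = 1.12e-04) and 0.127 ± 0.0462 for Maob (adjusted p = 0.0264), and 78.9% of genes were called higher. With library medians set to 0.5 the differences were −0.0793 and −0.0209. The call of Maob was lost without clone G1 at 24 h (0.0743; limma adjusted p = 0.0641) and without either WT library at 24 h (adjusted p = 0.109 and 0.0711). Against SpenKO at 24 h, Maoa was lower in SPOCmut by −0.0798 (limma adjusted p = 1.50e-04), with 40.7% of genes called lower. That call was lost with library medians set to 0.5 (−0.0214; limma adjusted p = 0.232). Maob differed by −0.0804 (95% interval −0.183 to 0.0219; limma adjusted p = 0.197), and by −0.133 without clone G1 (adjusted p = 0.0110).

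The response in SPOCmut differed from that in WT by a called amount for Maoa and not for Maob, and whether the paralogues differ in this was not tested. For Maoa the response in SPOCmut was smaller than in WT by 0.0665 ± 0.0145 (SE; limma adjusted p = 0.00275), as for 58.5% of genes, and with library medians set to 0.5 the difference was −0.0729 (adjusted p = 0.0218). For Maob the same contrast was −0.0562 ± 0.0654 (95% interval −0.201 to 0.0884; limma adjusted p = 0.470), number 3 of 270 genes from the lowest, against a median of 0.121. As a difference of ratios the estimated drop of Maob was larger in SPOCmut than in WT, and the interval allows a drop smaller by up to 0.0884. The starting ratios were unequal, with means of 0.759 in SPOCmut and 0.576 in WT. The retained share of Maob was close in both, at 72.1% and 73.0%. The response contrast of Maob rested on single libraries, with −0.00745 without WT replicate 1 and −0.105 without WT replicate 2 of the cells without doxycycline. It was −0.00885 without clone C10 and −0.109 without clone G1 at 24 h. Compared with SpenKO, the response in SPOCmut was larger for Maoa, by −0.0965 (limma adjusted p = 9.58e-04; 23.0% of genes called), a call lost with library medians set to 0.5 (−0.0354; adjusted p = 0.235). For Maob it was −0.169 (adjusted p = 0.0872), or −0.222 without clone G1 at 24 h (adjusted p = 0.00552). These contrasts share the WT, SPOCmut or SpenKO libraries with one another.

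**Figure D2:**
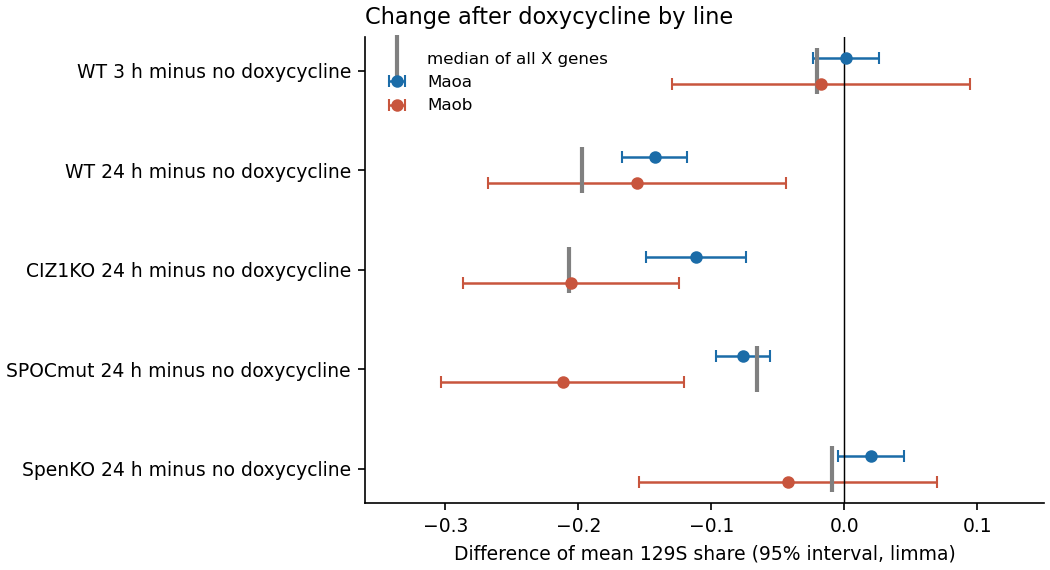
Change of the allelic ratio of Maoa and Maob against no doxycycline (x axis, difference of group means), with 95% limma intervals and the median change of all X genes as a grey bar. The rows are WT at 3 h, then WT, CIZ1KO, SPOCmut and SpenKO at 24 h of doxycycline. At 24 h Maoa fell less than the median gene in WT and CIZ1KO, so its change there is above 0 relative to that bar. Maob in SPOCmut (−0.212) lies far below the median of −0.0658 in that line.

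The starting ratio of Maob differed between lines by amounts that did not pass the adjusted threshold. SPOCmut exceeded WT without doxycycline by 0.183 ± 0.0462 (SE), number 269 of 270 genes from the lowest, with an unadjusted limma p of 0.00242 and an adjusted p of 0.163. The difference was 0.0941 for SpenKO (limma adjusted p = 0.724) and 0.0622 for CIZ1KO (adjusted p = 0.666). Both moved with the WT library left out, to 0.0454 and 0.0134 without WT replicate 1 and to 0.143 and 0.111 without WT replicate 2. For Maoa these 3 differences were 0.00213, −0.0146 and −0.00778 (limma adjusted p = 0.943, 0.809 and 0.893). In none of these comparisons was a gene called (limma, 0% of genes), while 34 genes had an unadjusted p under 0.05 for SPOCmut, 22 for SpenKO and 16 for CIZ1KO.

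Both ratios fell in CIZ1KO at 24 h, and no difference from WT was called for either gene. At 24 h Maoa was 0.406 and 0.395, and Maob 0.438 and 0.429, all below the values without doxycycline. The change was −0.111 ± 0.0153 (SE) for Maoa (limma adjusted p = 9.05e-04) and −0.205 ± 0.0329 for Maob (adjusted p = 0.00164), with 85.0% of 254 genes called lower and a median of −0.207. With library medians set to 0.5 the changes were 0.0968 and 0.00273. The retained share was 78.2% for Maoa and 67.8% for Maob, against a median of 60.0%. Against WT at 24 h, CIZ1KO differed by 0.0236 for Maoa (95% interval −0.0141 to 0.0613; limma adjusted p = 0.720) and 0.0124 for Maob (−0.0686 to 0.0934; adjusted p = 0.949). In the response to doxycycline it differed by 0.0314 for Maoa (−0.0220 to 0.0847; limma adjusted p = 0.851) and −0.0498 for Maob (−0.164 to 0.0648; adjusted p = 0.915). The latter ranged from −0.0986 to −0.00103 without WT replicate 2 and WT replicate 1 of the cells without doxycycline, respectively. In these 2 comparisons limma called 0% of genes, with 25 and 11 genes at an unadjusted p under 0.05.

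The gap between the paralogues was still present at 24 h. Maob exceeded Maoa in 7 of 7 libraries of WT, SPOCmut and CIZ1KO, by 0.0657 ± 0.0706 (SD, n = 7; two-sided exact permutation test, p = 0.0156, the smallest possible). With both SpenKO libraries it was 0.0739 ± 0.0633 (SD, n = 9; exact permutation p = 0.00391). Here too the libraries are not independent as lines. The mean gap was narrower at 24 h than without doxycycline in each line. It went from 0.0568 to 0.0438 in WT and from 0.165 to 0.103 in SpenKO. In CIZ1KO it went from 0.127 to 0.0327, and in SPOCmut from 0.238 to 0.102. By clone it went from 0.234 to 0.00406 in C10 and from 0.252 to 0.0866 in C2, but only from 0.228 to 0.216 in G1. The values of the 2 times overlapped in WT and did not overlap in the other lines. Unpaired exact permutation tests of the narrowing gave p = 1 in WT, 0.333 in SpenKO and CIZ1KO and 0.100 in SPOCmut. With 2 against 2 libraries such a test cannot go below 0.333, and with 3 against 3 not below 0.100.

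**Figure D3:**
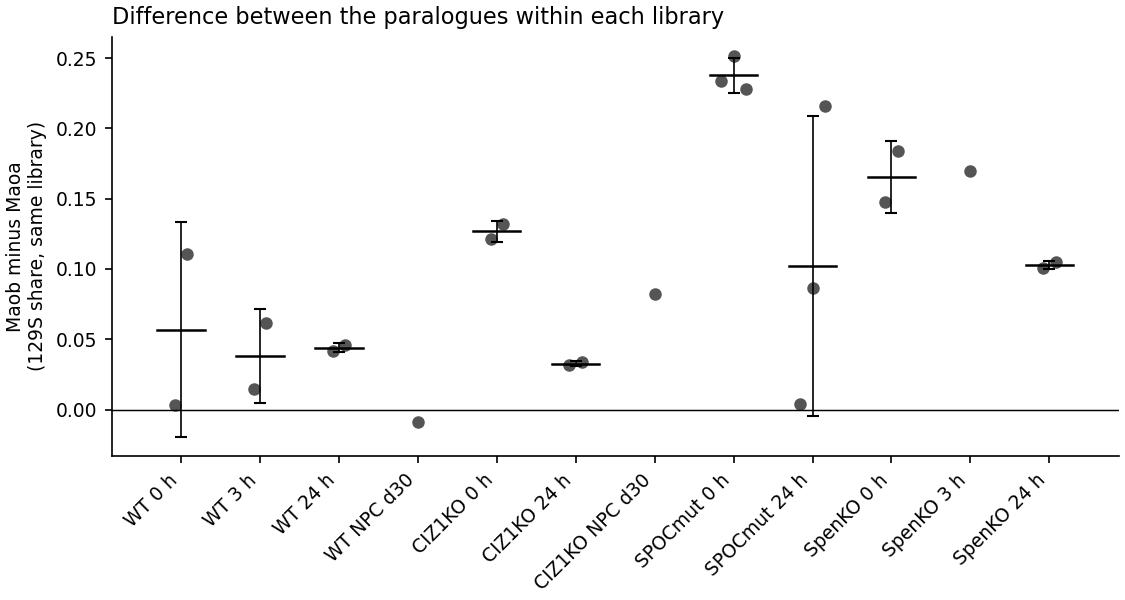
Ratio of Maob minus ratio of Maoa (y axis, difference of allelic ratios) in each library, by line and time along the x axis, with mean ± SD where a group has replicates and a line at 0. All 9 libraries without doxycycline and all 9 at 24 h lie above 0, and the WT NPC library is the exception at −0.00890.

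In NPC at day 30 both genes were far below their ES-cell ratios. WT NPC had 0.0506 for Maoa and 0.0417 for Maob, which is 9.73% and 7.23% of their ratios in WT ES cells without doxycycline. The median of all 254 genes in that library was 0.0546, and the members stood at the 47.6 and 43.3 percentiles. CIZ1KO NPC had 0.118 for Maoa and 0.200 for Maob, or 23.0% and 31.3% of the ES-cell values. There the median was 0.0830, and the members stood at the 63.8 and 83.9 percentiles. Each line gave 1 NPC library, so the difference between lines has no replicate check and no test. The reads behind these ratios are not known, and where they are few the percentiles and shares given here are loose. The labels do not say if doxycycline was given to the NPC cultures.

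**Figure D4:**
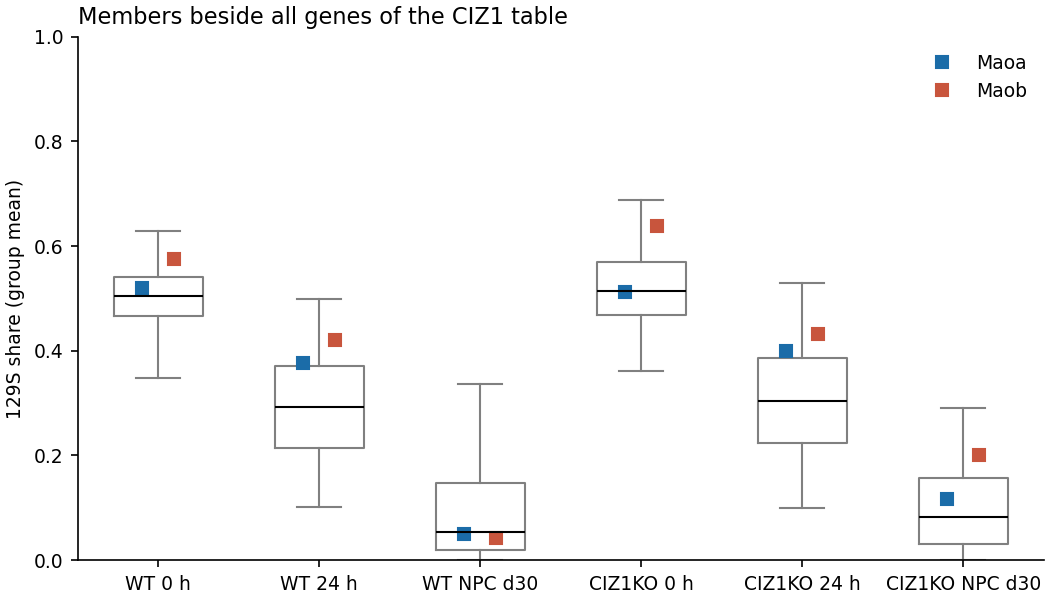
Allelic ratio (y axis, group mean of the 129S share of reads) of Maoa and Maob as squares against all 254 X genes of the table as boxes (quartiles, whiskers from the 5th to the 95th percentile) in WT and CIZ1KO without doxycycline, at 24 h and in NPC. In NPC the members lie near the median in WT (0.0506 and 0.0417) and above it in CIZ1KO (0.118 and 0.200).

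Maoa and Maob sit in a stretch of the X where most measured genes fell in WT, as on the chromosome as a whole. Of 31 other genes within 5 Mb, 28 were called lower at 24 h and 0 higher, where 88.9% of all X genes were called lower. The median change of the 31 was −0.161, against −0.197 over all genes. In CIZ1KO 30 of the 31 were called lower, beside 85.0% of all genes. In SPOCmut 7 were called lower (median −0.0377), beside 49.6% of all genes (median −0.0658), and in SpenKO 0, beside 0.741%. Genes not called could still have a negative change. Over all 270 genes the change was below 0 for 251 in SPOCmut and 182 in SpenKO. Among the 31 neighbours and the members, 33 in all, 20 had a larger estimated fall than Maoa in WT and 19 a larger one than Maob. In SPOCmut 6 genes had a larger drop than Maoa and 0 a larger drop than Maob. The members thus had middling changes for their neighbourhood in WT, and Maob the lowest value of it in SPOCmut.

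The genes on either side moved unequally. Cask, which encodes a synaptic scaffold kinase, fell by 0.127 ± 0.0145 (SE) in WT at 24 h (limma adjusted p = 9.96e-06), close to Maoa. Efhc2, the nearest measured gene beyond Maob, had a ratio of 0.794 without doxycycline and a change of −0.0349 ± 0.0348 (limma adjusted p = 0.349). Fundc1, a mitophagy receptor, changed by −0.0604 ± 0.0280 (adjusted p = 0.0601, limma). Kdm6a, a histone demethylase gene, fell by 0.0291 ± 0.00868 (limma adjusted p = 0.00871), a fall of smaller size than that of either monoamine oxidase gene. On the other side, Ddx3x and Usp9x fell by 0.156 and 0.166 (limma adjusted p = 4.22e-07 and 5.69e-08). In SPOCmut the change was −0.0491 for Cask, −0.0212 for Ddx3x, 0.00188 for Usp9x, 0.00867 for Efhc2, −0.0464 for Fundc1 and −0.0100 for Kdm6a, of which Cask passed (limma adjusted p = 0.00537). None of these 6 neighbours came near the mean change of −0.212 of Maob in SPOCmut. By clone the change of Maob was −0.294 in C10, −0.233 in C2 and −0.108 in G1.

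**Figure D5:**
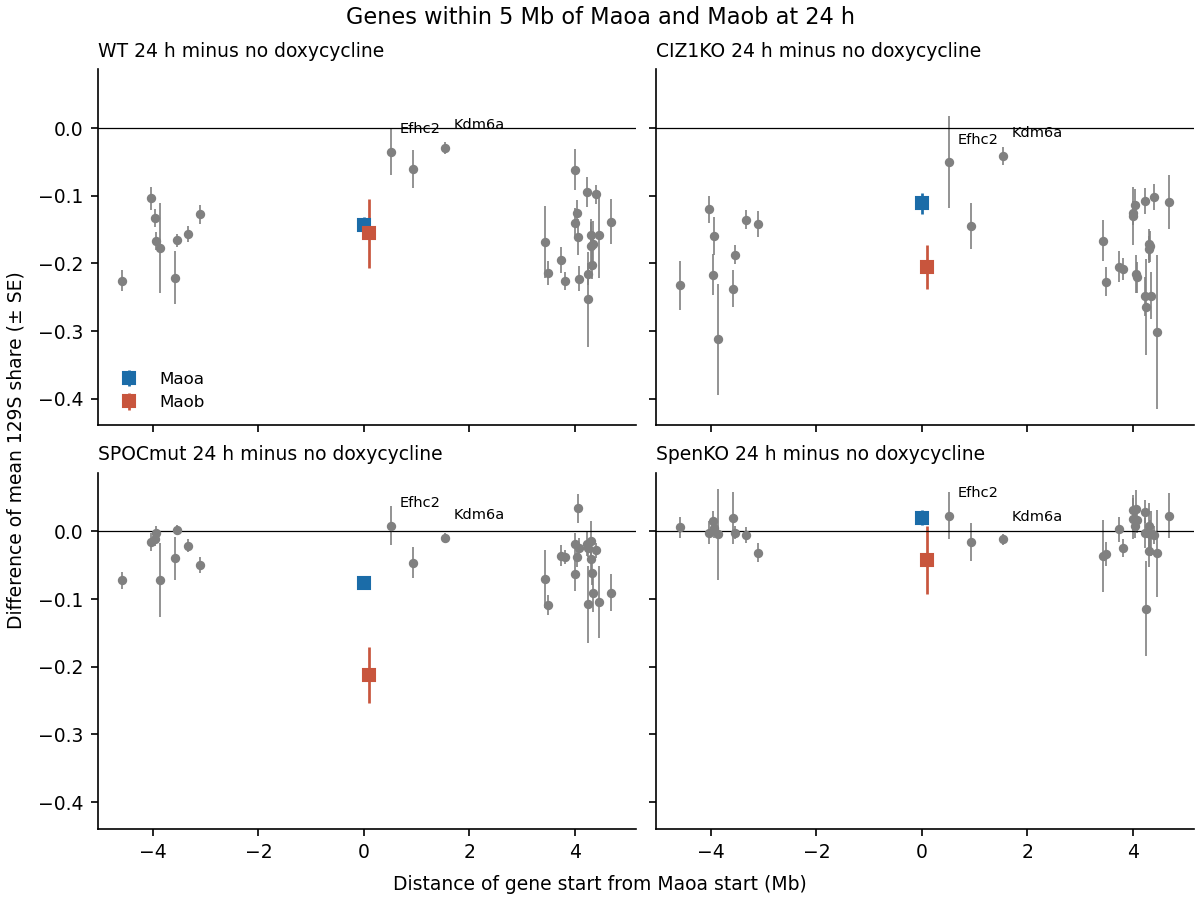
Change of the allelic ratio at 24 h (y axis, difference of group means ± SE from limma) of Maoa, Maob and the 31 other genes within 5 Mb, by distance from the start of Maoa (x axis, Mb), with a panel for each of WT, SpenKO, SPOCmut and CIZ1KO. In WT 28 of the 31 were called lower, and in SPOCmut Maob has the lowest value of the 33 genes.

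The 5 genes with the most similar group ratios were others for each paralogue. Likeness was measured as the root mean square difference of group mean ratios over the 7 replicated ES-cell groups, a measure that weighs the starting ratio as well as the change. The genes most like Maoa were Brcc3 (0.0190), Rbm10 (0.0198), Igbp1 (0.0220), Ssr4 (0.0241) and Idh3g (0.0244). The genes most like Maob were Zfx (0.0498), Gab3 (0.0555), Gyk (0.0568), Bcorl1 (0.0571) and Pnma5 (0.0649), all at a greater distance than the 5 nearest to Maoa. The distance between the paralogues was 0.126, and Maob was number 211 of 269 in the order of Maoa, and Maoa number 79 of 269 in that of Maob. Ordered by Pearson's r over the same 7 groups, which ignores the level, other genes came first, led by Gspt2 for Maoa and AW822252 for Maob. Maoa was then number 161 of 268 in the order of Maob, and Maob number 212 of 268 in that of Maoa.

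The counts for other X genes with related roles stand beside 88.9% of all genes called lower in WT (median −0.197), 49.6% in SPOCmut, 0.741% in SpenKO and 85.0% in CIZ1KO. Of 18 further genes for amine, polyamine and transmitter handling, 6 were measured, and 6 of 6 were called lower in WT at 24 h (median −0.223). The largest fall was that of Gria3, a glutamate receptor subunit gene (−0.305 ± 0.0482 SE), and the smallest that of Il1rapl1, a synaptic adhesion gene (−0.111 ± 0.0243), with limma adjusted p = 1.28e-04 and 0.00132. Both are synaptic genes, like Syn1 and Gabre of the same list. In SPOCmut 2 of these 6 were called lower and in SpenKO 1, and in CIZ1KO 6 of the 8 measured there. Of 14 measured genes for mitochondrial proteins, 10 were called lower in WT (median −0.183), 6 in SPOCmut and 0 in SpenKO, and 12 of 13 in CIZ1KO. Gyk, the glycerol kinase gene, had the largest fall in WT (−0.310 ± 0.0175). Slc25a5, which encodes an adenine nucleotide carrier, had a change of 0.0544 ± 0.0473 (limma adjusted p = 0.287). Slc25a5 has processed copies, and whether they affect its ratio was not tested. Maoa and Maob, with −0.143 and −0.156 in WT, thus fell less than the median of either list.

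Feeder fibroblasts were present in the ES cultures, and their RNA would carry a ratio of its own. Of 15 X genes listed for fibroblasts, 9 were measured and 8 were called lower in WT at 24 h (median −0.295), 6 in SPOCmut, 0 in SpenKO and 8 in CIZ1KO. Over all genes 88.9% were called lower in WT (median −0.197), 49.6% in SPOCmut, 0.741% in SpenKO and 85.0% in CIZ1KO. The largest fall was that of Msn (−0.367), and Srpx changed by −0.0389 without passing (limma adjusted p = 0.758). The tables give shares and no levels, so the amount of feeder RNA in the ratios of Maoa and Maob was not tested.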

How the data were processed

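Chromatin-associated RNA was extracted from nuclei and sequenced as 81-base read pairs from stranded total RNA libraries, per the labels' protocols. The submitters' processing notes name mm10 as the build and STAR 2.4.2a, Bowtie2 2.3.2, edgeR, featureCounts, bedtools and SAMtools as tools, with no order. What the authors deposited is an allelic ratio for each gene in each library, which is a fraction between 0 and 1. One table holds 270 X genes in 17 libraries and another 254 X genes in 10 libraries, and the 4 libraries and 248 genes in both have identical values. No value of Maoa or Maob was missing and no filter removed either. Not given in the sources used here are the filters behind the tables, the strand setting of the counting and the numerator allele. Depth is unknown, so no counting interval is given. A chromosome 15 table was not used here. A column named Dox without a time was read as 24 h. The targeted genes Spen and Ciz1 were not measured, so their loss was not checked.

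Raw ratios were fitted in limma 3.58.1 (R 4.3.3), taking all ES-cell libraries of a table in 1 fit on group means without a replicate block. Adjustment was by Benjamini-Hochberg over all genes of the table, and calls were made at an adjusted p under 0.05. The code was tested on simulated data. In the fits SpenKO at 3 h has 1 library and enters no comparison. The paralogues were compared within libraries by exact permutation tests, computed in Python 3.11.15. Genes named beside the members were the measured neighbours, fixed neighbouring loci, the 5 most alike and the extremes of each list. The members and lists were chosen with earlier results of these data known. Alternatives were a logit scale with a pseudocount of 0.01, only genes with a mean ratio from 0.2 to 0.8, only the groups compared, eBayes with trend and robust, the same groups in the other table, Benjamini-Yekutieli adjustment, library medians set to 0.5, a replicate block and leaving out each replicate or line. Gene starts and ends are those deposited with the ratios, with 1 added to the start so that the first base is 1. Of 255 genes matched to RefSeq by symbol, the deposited start lay 1 base below in 123 and was equal in 7. Exons, overlapping genes and transcripts are from GENCODE M21.

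Same-numbered libraries were checked for pairing by the correlation over genes of their deviations from the group means. The labels give the SPOCmut clones at both times, so SPOCmut is paired by clone, with correlations of −0.0170 for C10, −0.113 for C2 and 0.148 for G1. The other lines have 2 numbers each and share only a number.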

Additional observations from a re-analysis of the deposited data

Results flagged for a closer look

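The response of Maoa to 24 h of doxycycline differed between lines in 3 interaction tests. The change of its ratio was less negative by 0.163 in SpenKO than in WT, and by 0.0665 in SPOCmut than in WT. Between SPOCmut and SpenKO the difference of the changes was −0.0965. The limma adjusted p was 7.06e-06, 0.00275 and 9.58e-04. The changes in WT, SPOCmut and SpenKO were −0.143, −0.0762 and 0.0203, and the replicate values of the lines at 24 h did not overlap. With library medians set to 0.5 the differences were −0.0375, −0.0729 and −0.0354 (limma adjusted p = 0.187, 0.0218 and 0.235). The 2 differences that involve SpenKO then missed the threshold, and that between SPOCmut and WT passed it with the opposite sign.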

How the results depend on the processing

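Of 242 values of the members from alternatives other than leaving out replicates, 219 kept their direction and side of the threshold, 8 lost their call and 15 changed sign. Most of these came from setting library medians to 0.5, which by construction removes the shift shared by all X genes. For Maoa it gave 0.0682 in WT at 24 h, 0.0408 from 3 h to 24 h (limma adjusted p = 0.0332), −0.00479 in SPOCmut and 0.0968 in CIZ1KO (adjusted p = 0.00838). At 24 h it gave Maoa −0.0578 for SpenKO and −0.0793 for SPOCmut against WT (limma adjusted p = 0.00532 and 6.84e-04) and −0.0214 for SPOCmut against SpenKO, which lost its call. Response differences of Maoa were −0.0375 for SpenKO and −0.0729 for SPOCmut against WT, and −0.0354 for SPOCmut against SpenKO. The difference of SPOCmut from WT without doxycycline was −0.00631. For Maob it gave 0.00854 in WT at 3 h, 0.0552 at 24 h, 0.0467 from 3 h to 24 h and 0.00273 in CIZ1KO. For Maob at 24 h against WT it gave 0.00112 in SpenKO, −0.0209 in SPOCmut and −0.00162 in CIZ1KO, and the SpenKO response difference was −0.0873. With Benjamini-Yekutieli adjustment Maob missed the threshold for −0.156 in WT at 24 h (limma adjusted p = 0.0838), −0.138 from 3 h to 24 h (adjusted p = 0.151) and 0.127 for SPOCmut against WT (adjusted p = 0.163). The last also missed it with only the groups compared (limma adjusted p = 0.126). Maob minus Maoa at 24 h was 0.0788 without CIZ1KO, 0.0383 without SPOCmut and 0.0744 without WT, where the exact permutation p was the smallest possible (0.0625, 0.125 and 0.0625).

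Leaving out each replicate gave 186 values, of which 170 kept direction and call. Maoa at 3 h in WT ranged from −0.00951 to 0.0116 and Maob from −0.0666 to 0.0310. Maob ranged from −0.204 to −0.107 in WT at 24 h and from −0.151 to −0.125 from 3 h to 24 h. For SPOCmut at 24 h it ranged from 0.0743 to 0.174 against WT and from −0.133 to −0.0331 against SpenKO, and for the response against SpenKO from −0.222 to −0.122. Maoa of SPOCmut against WT without doxycycline ranged from −0.00345 to 0.00729. The retained share of Maob ranged from 67.3% to 79.7% in WT, from 91.0% to 96.5% in SpenKO, from 65.2% to 78.3% in SPOCmut and from 66.6% to 69.1% in CIZ1KO.

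The replicate block changed no call of Maoa or Maob, and same-numbered libraries correlated at 0.101 in WT, 0.112 in SpenKO and −0.107 in CIZ1KO between 0 h and 24 h. It moved the number of genes called in SpenKO at 24 h from 2 to 0. In CIZ1KO at 24 h the block gave 218 calls, and crossed numbers, an alternative added after seeing the data, 217 against 216. The number of X genes called moved by more than 1.5 times in other cases. With medians set to 0.5 it went from 240 lower and 0 higher to 44 lower and 63 higher in WT at 24 h, from 216 to 36 lower and 46 higher in CIZ1KO, from 238 to 107 for SpenKO and 214 to 101 for SPOCmut against WT, and from 113 to 63 for SPOCmut against SpenKO. In the same setting it went from 232 to 92 from 3 h to 24 h, from 207 to 52 and 158 to 32 for the responses of SpenKO and SPOCmut against WT, from 62 to 18 for SPOCmut against SpenKO, from 2 to 1 in SpenKO at 24 h and from 0 to 1 for CIZ1KO against WT at 24 h. In WT at 3 h it was 60, 2 with only the groups compared and 38 with Benjamini-Yekutieli adjustment. That adjustment gave 67 for SPOCmut against SpenKO, 34 for their responses and 0 in SpenKO at 24 h, as did only the groups compared there. Without SpenKO replicate 1 at 24 h the response count was 41, and without CIZ1KO replicate 1 at 0 h there were 4 and 2 calls for CIZ1KO against WT without doxycycline and in the response. Depth is unknown, so what counting error adds to each ratio cannot be given.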
